A study of Homo sapiens with 2 samples.

Results

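Matrix metalloproteinases (MMP), ADAM proteases (a disintegrin and metalloproteinase) and ADAMTS proteases (ADAM with thrombospondin motifs) were examined in RNA-seq data of TFK1 cells, an established human cholangiocarcinoma cell line. The members were taken by their gene symbols in the deposited tables, which gave 65 of 56638 genes: 24 MMP, 22 ADAM and 19 ADAMTS genes. The symbol rule uses no measured value, but the families were chosen with earlier results of these data known. Both libraries together held 10 or more reads for 33 of them and fewer for 32. The study compared untreated TFK1 cells carrying a shRNA against MBD2 (shMBD2) with TFK1 cells carrying a negative control shRNA (shNC), to find factors that MBD2, a reader of DNA methylation, regulates in cholangiocarcinoma cells. According to the study's methods, shRNAs were introduced with lentivirus and the cells were selected with puromycin or G-418, so both groups carry a vector. The labels do not say which of the study's shRNAs against MBD2 was sequenced. As shMBD2 and shNC were sequenced as 1 library each, the differences below lack a replicate check, and p-values are not given.

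Most members of these families are zinc-dependent endopeptidases that are made as inactive proenzymes. MMPs are secreted or membrane-anchored and cleave collagens, laminins and other matrix proteins, and in epithelial tumors they are known for their part in invasion. ADAMs are transmembrane proteins, of which some shed growth factors, cytokine receptors and adhesion molecules from the cell surface and others lack a working catalytic site and act in adhesion. ADAMTS proteases are secreted and bind to the matrix, where they cleave proteoglycans, procollagens or von Willebrand factor. Tissue inhibitors of metalloproteinases (TIMPs) bind the active site of MMPs and of some ADAM and ADAMTS proteases.

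The counts summed to 14728814 in shMBD2 and 14467406 in shNC. Changes are given as log2FC, shMBD2 over shNC, from TMM-scaled counts after adding 0.5 counts, where the libraries together held 10 or more reads of the gene. Each has a 95% exact Clopper-Pearson interval from how the reads divided between the libraries, which covers counting error only. A log2FC past 1 or -1, a 2-fold difference, is called a change of size here. Levels of different genes are compared in TPM, which is scaled by gene length. MBD2 itself had 365 counts in shMBD2 and 1013 in shNC, or 35.8% of the shNC level after scaling (log2FC -1.48, interval -1.66 to -1.31). The epithelial keratins KRT7, KRT8 and KRT18 had between 6277 and 62047 counts in each library, whereas KRT19 had 119 and 70. The 8 biliary epithelial markers summed to 4837 TPM in shMBD2 and 6047 TPM in shNC, with a median log2FC of -0.35. Of them 0 lay past 1 or -1, against 10.6% of all genes with at least 10 counts. Each marker had over 100 counts in both libraries together. Of all genes with at least 100 counts, 1.78% lay above 1 and 1.06% below -1. The 4 endothelial markers (PECAM1, CDH5, VWF and KDR) had at most 1 count in a library, as did the fibroblast markers COL1A2, DCN and PDGFRB and the leukocyte markers PTPRC, TYROBP, CD52 and MPO. Summed over each list, leukocyte markers were at 22.7 TPM in shMBD2 and 17.2 TPM in shNC, and fibroblast markers at 8.42 and 3.98 TPM, of which COL1A1 alone made up 8.01 and 3.31 TPM. In bulk RNA, fewer expressing cells and less RNA per cell cannot be told apart.

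Across the 33 metalloproteinase genes with at least 10 counts, 4 were higher in shMBD2 by a log2FC above 1 and 0 were lower by a log2FC below -1. The 4 genes were MMP2, MMP19, ADAM19 and ADAM28. They made up 12.1% of the 33, whereas 5.48% of all 17545 genes tested lay above 1 and 5.07% lay below -1. Their reads were few, since MMP2, MMP19 and ADAM28 together had fewer counts than ADAM19 alone. MMP19, with 5 counts in shNC, passed the minimum of 10 counts through shMBD2 alone. The median log2FC was 0.31 over 10 MMP genes, 0.0053 over 12 ADAM genes and -0.086 over 11 ADAMTS genes, against -0.0082 over all genes tested. The ADAM median changed sign under total counts, under both TPM scales and with at least 100 counts, so no direction is read from it. All 11 ADAMTS genes lay between -0.97 and 0.78. With the counting interval as the criterion, 12 of the 33 genes lay wholly above 0 and 9 wholly below 0, against 19.7% and 18.4% of all genes, and 12 spanned 0. The median number of counts summed over both libraries was 261 for the 33 genes and 431 for all genes tested.

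**Figure D1:**
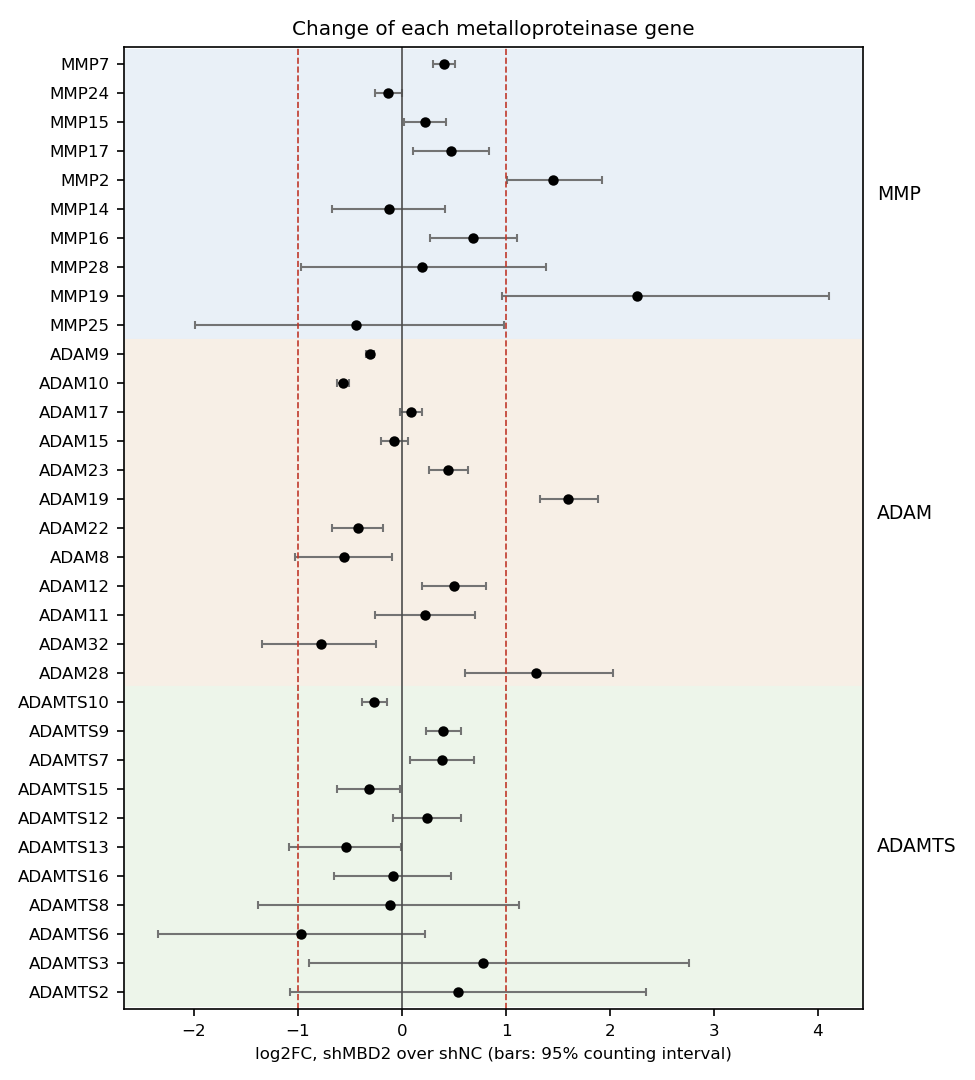
Log2FC (x axis, shMBD2 over shNC, 1 library each) of the 33 MMP, ADAM and ADAMTS genes with at least 10 counts, grouped by family and ordered by mean TPM; bars are 95% counting intervals and dashed lines mark 1 and -1. MMP2 and ADAM19 have intervals wholly above 1, the points of MMP19 and ADAM28 lie above 1 with intervals that reach below it, and no gene lies below -1.

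The transcripts of each family came mainly from a few genes. ADAM9, a widely expressed membrane protease, was the most abundant member with 414 TPM in shMBD2 and 522 TPM in shNC. It made up 59.4% and 60.3% of the summed TPM of all ADAM genes. MMP7, or matrilysin, an MMP typical of glandular epithelium, was next by mean TPM with 212 and 163 TPM, which was 72.0% and 68.6% of the MMP total. ADAM10, the main sheddase of Notch receptors and E-cadherin, had 138 and 209 TPM, and was above MMP7 in shNC and below it in shMBD2. ADAM17, which releases TNF and several EGFR ligands, had 62.6 and 60.2 TPM. ADAMTS10, which is linked to fibrillin microfibrils, led its family with 41.4 and 50.7 TPM, or 53.1% and 60.2% of the ADAMTS total. The other genes among the 10 most abundant were MMP24 (37.8 and 42.3 TPM), ADAM15 (35.7 and 38.3 TPM), MMP15 (17.7 and 15.5 TPM), ADAMTS9 (16.1 and 12.5 TPM) and ADAM23 (15.8 and 11.9 TPM). None of these 10 genes had a log2FC past 1 or -1, against 10.6% of all genes tested. However, each had well over 100 counts. Of all genes with at least 100 counts, 1.78% lay above 1 and 1.06% below -1, so this does not set the 10 apart. Summed over families, MMP genes were at 295 TPM in shMBD2 and 238 TPM in shNC, ADAM genes at 697 and 866 TPM, and ADAMTS genes at 77.9 and 84.2 TPM. The MMP total differed by 56.4 TPM, of which MMP7 accounted for 48.9 TPM. The ADAM total differed by -169 TPM, ADAM9 by -109 TPM and ADAM10 by -70.6 TPM, while the ADAM genes other than these 2 summed to 145 TPM in shMBD2 and 135 TPM in shNC.

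**Figure D2:**
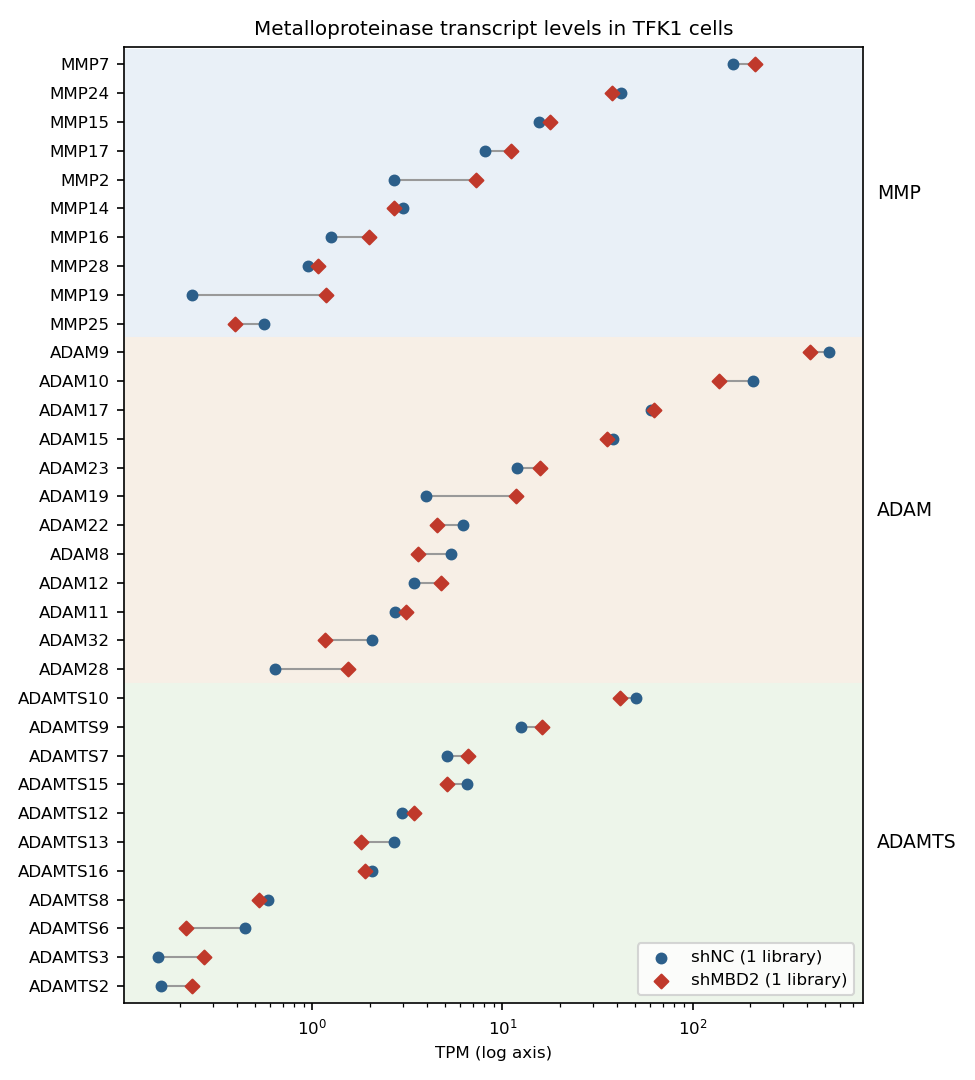
TPM (log axis) of 33 members with 10 or more reads in all, shown for shMBD2 (red diamonds) and shNC (blue circles), 1 library each, by family. ADAM9, MMP7 and ADAM10 are the only members above 100 TPM in both libraries, and MMP2, MMP19, ADAM19 and ADAM28 lie well apart in the 2 libraries, all higher in shMBD2.

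Among gelatinases, which cleave denatured collagen and the collagen IV of basement membranes, MMP2 was expressed and MMP9 was not detectable at this depth. MMP2 (ENSG00000087245), on the plus strand of chromosome 16 from 55423612 to 55540603, had 155 counts in shMBD2 and 56 in shNC, or 7.25 and 2.69 TPM. Its level was thus 2.74-fold higher in shMBD2, a log2FC of 1.45 (interval 1.01 to 1.93). No other gene with reads overlapped it. MMP9 had 0 counts in shMBD2 and 1 in shNC. A count of 0 allows up to 3 counts, which is 0.205 CPM in shMBD2 and 0.206 CPM in shNC. These positions are those of the deposited tables, whose build is not named in them. The processing notes name GRCh38.p13, yet 0 of the 62 members found in GENCODE 29 (GRCh38) had the same span there.

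MMP19 (ENSG00000123342), an MMP outside the classical subgroups, is located at 56229217 to 56236750 of chromosome 12, minus strand. It had 26 counts in shMBD2 and 5 in shNC, or 1.18 and 0.234 TPM. Its log2FC of 2.26 was the highest of the 33 genes, but its interval was wide (0.97 to 4.11). TMEM198B overlaps it on the opposite strand with 165 and 171 counts. The sources do not state whether reads were counted by strand, so reads of a gene and of a partner on the opposite strand cannot be told apart. Of the remaining MMPs outside the subgroups, MMP28 had 15 and 13 counts, MMP21 had 2 and 0, MMP20 had 0 and 1, and MMP12 (macrophage elastase), MMP23A, MMP23B and MMP27 had none. MMP23A and MMP23B are near-identical copies, so reads that match both could have been left out of the counts.

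All 6 membrane-type MMPs, which stay anchored at the cell surface, had at least 10 counts, and all lay within 1 and -1. Of all genes tested, 10.6% lay past these limits. MMP24 (MT5-MMP) was the most abundant, with 954 counts in shMBD2 and 1039 in shNC, a log2FC of -0.13 (interval -0.26 to -0.0038). MMP24 shares its locus with the antisense RNA MMP24-AS1 (210 and 185 counts) and with EDEM2 (780 and 727 counts), which differed little between the libraries. MMP15 had 431 and 368 counts and a log2FC of 0.22 (interval 0.015 to 0.42). MMP17 had 152 and 109 counts and a log2FC of 0.47 (interval 0.11 to 0.84). MMP16 had 131 and 81 counts and a log2FC of 0.68 (interval 0.27 to 1.10). MMP14 (MT1-MMP), the activator of pro-MMP2, was low in both libraries, with 57 and 62 counts, 2.67 and 2.98 TPM, and a log2FC of -0.13 (interval -0.68 to 0.41). The MMP2 difference was therefore seen beside an MMP14 level that differed by less than the counting error. MMP25 had 8 and 11 counts.

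A run of 9 MMP genes lies on the minus strand of chromosome 11 between 102391239 and 102826463, over 435.2 kb, and apart from its first gene it had at most 6 counts per gene and library. MMP7 had 1606 counts in shMBD2 and 1205 in shNC, a log2FC of 0.41 (interval 0.30 to 0.51), that is 1.32-fold higher. The collagenases MMP1, MMP8 and MMP13 had 1, 0 and 0 counts in shMBD2 and 0 in shNC. The stromelysins MMP3 and MMP10 had 3 and 6 counts in shMBD2 and 1 each in shNC, while MMP11, the stromelysin encoded on chromosome 22, had 5 and 1. MMP20, MMP27 and MMP12 had at most 1 count. MMP26, the other matrilysin, had none in either library. The low-count genes MMP3, MMP10 and MMP11 were each higher in shMBD2 by a few reads, and none had the 10 counts needed for a log2FC.

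**Figure D3:**
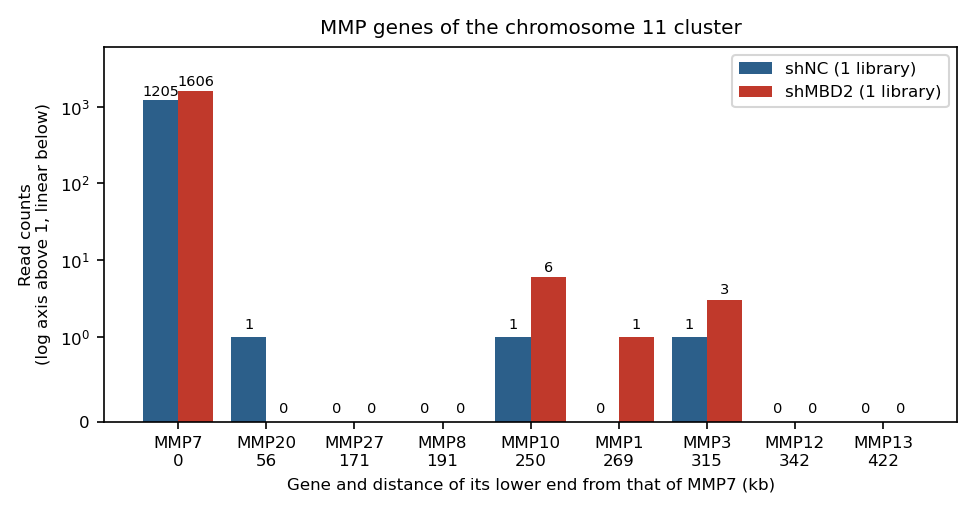
Read counts (y axis, logarithmic above 1 and linear below) of the 9 MMP genes of the chromosome 11 cluster in shNC (blue) and shMBD2 (red), 1 library each, in genomic order with the distance in kb from MMP7. MMP7 has 1606 and 1205 counts, and the other 8 genes have between 0 and 6.

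MMP7 and MMP10, a gene of the same cluster with 6 and 1 counts, carry a TATA box and an AP-1 motif at nearly the same distance from the start, which is why their promoters are shown. AP-1 is the dimer of FOS and JUN proteins and is known to act at MMP promoters. RefSeq promoter windows (GRCh38.p14, 250 bases before to 50 bases after the start) were found for 36 of the 65 members, and ADAMTS10 has a pair of windows. The 29 members without a window include MMP2, MMP19 and ADAM28, which had a log2FC above 1, and MMP1, MMP3, MMP9 and MMP13. Their promoters were not searched, so the shares below do not cover them. The AP-1 motif TGANTCA was searched on both strands and occurred in 3 of 12 MMP windows (MMP7, MMP10 and MMP20), 0 of 12 ADAM windows and 1 of 13 ADAMTS windows (ADAMTS12), and in 7.71% of all 35116 windows. The TATA motif TATAAA occurred in 6 of 12 MMP windows, 1 of 12 ADAM windows and 1 of 13 ADAMTS windows, and in 11.5% of all windows. In the sequences below, 5′ to 3′ on the minus strand, capitals mark the AP-1 and TATA motifs. Those of MMP7 (chr11:102530768-102530827) and MMP10 (chr11:102780649-102780708) run from 80 to 21 bases before the start, and that of MMP20 (chr11:102625393-102625452) runs from 120 to 61 bases before it.
MMP7: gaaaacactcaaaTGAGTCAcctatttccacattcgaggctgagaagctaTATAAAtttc
MMP10: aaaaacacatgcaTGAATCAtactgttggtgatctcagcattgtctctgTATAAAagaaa
MMP20: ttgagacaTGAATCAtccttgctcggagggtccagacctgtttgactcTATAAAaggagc
In MMP7 and MMP10 the AP-1 motif starts 67 bases before the start, and it reads TGAGTCA in MMP7 and TGAATCA in MMP10 and MMP20. MMP7, with 1606 and 1205 counts, and 2 genes with 6 or fewer thus hold the same 2 motifs within the window searched. A match is a description of the letters and not evidence of binding.

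MBD2 binds methylated CpG dinucleotides, and the members differed widely in promoter CpG content. Of 35 members with a single promoter window, the 18 with at least 10 counts had a median of 31 CpG (range 4 to 47), and the 17 with fewer counts had a median of 10 CpG (range 0 to 42), against a median of 14 over all windows. The 5 windows from the chromosome 11 cluster held 2 to 4 CpG. MMP7 had 4 CpG and was the most abundant of the 35 members, and MMP10 had 2. At the other end, ADAMTS2 and ADAMTS14 had 47 and 42 CpG, with 9 and 3 counts in shMBD2 and 6 and 3 in shNC. ADAM19 had 26 CpG, and MMP2, MMP19 and ADAM28 had no window. Methylation of these promoters was not measured here.

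ADAM19 (ENSG00000135074), or meltrin beta, a membrane protease known to process neuregulins, was the ADAM gene with the highest log2FC. Located at 156822542 to 157002783 of chromosome 5, minus strand, it had 436 counts in shMBD2 and 143 in shNC, or 11.8 and 3.96 TPM. The level was 3.02-fold higher in shMBD2, a log2FC of 1.60 (interval 1.32 to 1.88). Of all genes tested, 1.37% had an interval wholly above 1, as ADAM19 and MMP2 did, and 0.581% had one wholly below -1. On the opposite strand it overlaps CYFIP2, with 1329 and 1282 counts, and NIPAL4, with 68 and 24 counts. The part of these reads in the ADAM19 difference was not tested. ADAM28, which is known from lymphocytes and from carcinomas, had 62 counts in shMBD2 and 25 in shNC, or 1.54 and 0.636 TPM, and a log2FC of 1.28 (interval 0.61 to 2.03). Of the 10 leukocyte markers, 5 had at least 10 counts. LAPTM5 (29 and 3 counts) and CORO1A (56 and 19) lay above 1, ELANE (5 and 11) lay below -1, and CD14 and ITGAM were at 0.26 and 0.38. The others had at most 5 counts, and PTPRC had 0 and 1. Their part in the ADAM28 difference was not tested. ADAM7, beside ADAM28, had no reads.

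The 2 most abundant ADAM genes were lower in shMBD2, with differences that were small but larger than the counting error. ADAM10 (ENSG00000137845), at 58887403 to 59042177 of chromosome 15, minus strand, had 3981 counts in shMBD2 and 5860 in shNC, a log2FC of -0.57 (interval -0.63 to -0.51). ADAM9 had 9084 and 11176 counts and a log2FC of -0.31 (interval -0.35 to -0.27). ADAM17 had 1557 and 1460 counts, and its interval of -0.020 to 0.19 around a log2FC of 0.084 spanned 0. The ratio of ADAM10 to ADAM17 in TPM was thus 2.21 in shMBD2 and 3.47 in shNC. ADAM17 overlaps IAH1 on the opposite strand, which had 485 and 709 counts. ADAM15, which carries an integrin-binding motif, had 919 and 961 counts and an interval that spanned 0. ADAM8 (67 and 98 counts, log2FC -0.55, interval -1.03 to -0.095) was lower and ADAM12 (215 and 151 counts, log2FC 0.50, interval 0.19 to 0.81) was higher. ADAM20, ADAM21 and ADAM33 had 1 to 4 counts in all, and ADAM30 had none.

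The promoters of ADAM19, ADAM10 and ADAM17 are shown because all 3 hold an NF-κB motif, although their log2FC values differed. NF-κB is a family of transcription factors that drive inflammatory genes. The motif GGGRNNYYCC (R is A or G, Y is C or T, N is any base) was searched on both strands. It occurred in 3 of 12 ADAM windows, 0 of 12 MMP windows, 1 of 13 ADAMTS windows (ADAMTS3) and 11.3% of all windows. The motif is rich in G and C, which made up 68.0%, 74.7% and 75.7% of the ADAM10, ADAM17 and ADAM19 windows. In the MMP7 window they made up 35.7%, while MMP24 and MMP15, at 80.0% and 75.3%, held no match. Base composition was not accounted for, so no family difference is read from these shares. The sequences are from RefSeq (GRCh38.p14), run 5′ to 3′ on the minus strand from 120 bases before the start to the last base before it, and have the motif in capitals. They are those of ADAM19 (chr5:157575776-157575895), ADAM10 (chr15:58749708-58749827) and ADAM17 (chr2:9555831-9555950).
ADAM19: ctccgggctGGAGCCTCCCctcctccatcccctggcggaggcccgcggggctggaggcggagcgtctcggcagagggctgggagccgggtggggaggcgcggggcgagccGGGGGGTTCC
ADAM10: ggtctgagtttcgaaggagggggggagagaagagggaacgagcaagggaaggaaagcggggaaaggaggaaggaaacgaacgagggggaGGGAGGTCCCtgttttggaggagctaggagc
ADAM17: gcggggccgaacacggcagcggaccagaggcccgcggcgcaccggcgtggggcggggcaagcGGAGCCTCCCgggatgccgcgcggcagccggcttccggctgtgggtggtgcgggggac
ADAM19 holds 2 matches, 111 and 10 bases before the start, ADAM10 holds 1 at 31 bases and ADAM17 holds 1 at 58 bases. The log2FC values of these genes were 1.60, -0.57 and 0.084. The interval of ADAM17 spanned 0.

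ADAMs known to lack catalytic activity gave 4 genes with reads and 4 without. ADAM23 and ADAM22 are ligands or receptors of the LGI proteins in neurons. ADAM23 had 573 counts in shMBD2 and 418 in shNC (log2FC 0.45, interval 0.26 to 0.63), whereas ADAM22 had 241 and 322 (log2FC -0.43, interval -0.67 to -0.18). ADAM11 had 81 and 69 counts and an interval spanning 0. ADAM32 had 46 and 79 counts and a log2FC of -0.78 (interval -1.35 to -0.25), the most negative of the ADAM genes. The sperm-associated genes ADAM2, ADAM7, ADAM18 and ADAM29 had no reads, and neither did the pseudogenes ADAM5 and ADAM6. ADAM9, ADAM32, ADAM5, ADAM18 and ADAM2 lie in this order within 841.4 kb, and counts went from 9084 and 11176 at ADAM9 to 46 and 79 at ADAM32 and 0 at the other 3. ADAM22 lies 220.8 kb from the nearest end of ABCB1, the drug efflux pump gene, in the deposited positions. ABCB1 had 58 and 176 counts, a log2FC of -1.60 (interval -2.06 to -1.17), so both genes were lower in shMBD2, by different amounts.

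None of the 11 ADAMTS genes with at least 10 counts lay past 1 or -1, against 10.6% of all genes tested. With so few genes this does not set the family apart. Among those that cleave proteoglycans such as versican and aggrecan, ADAMTS9 had 687 counts in shMBD2 and 519 in shNC, a log2FC of 0.40 (interval 0.23 to 0.56). ADAMTS15 had 166 and 206 counts and a log2FC of -0.32 (interval -0.62 to -0.018), and its neighbor ADAMTS8 had 12 and 13 counts. ADAMTS1 and ADAMTS4 had 4 and 3 counts in shMBD2 and 2 and 0 in shNC, and ADAMTS5 and ADAMTS20 had none, so the aggrecanases best known from cartilage were near or below detection. The antisense RNA ADAMTS9-AS1 had 0 counts in shMBD2 and 10 in shNC, and ADAMTS9-AS2 had 6 and 3.

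ADAMTS10 had 1001 counts in shMBD2 and 1195 in shNC, a log2FC of -0.26 (interval -0.39 to -0.14). The COMP-cleaving ADAMTS7 had 206 and 157 counts (log2FC 0.38, interval 0.076 to 0.69) and ADAMTS12 had 172 and 145 (log2FC 0.24, interval -0.090 to 0.57). ADAMTS7 overlaps MORF4L1 on the opposite strand, which had 6692 and 6713 counts. ADAMTS13, which cleaves von Willebrand factor, had 51 and 74 counts and a log2FC of -0.54 (interval -1.09 to -0.012). It overlaps REXO4, with 640 and 589 counts. The procollagen N-propeptidases were at or near the floor, with 9 and 6 counts for ADAMTS2, 9 and 5 for ADAMTS3 and 3 and 3 for ADAMTS14. Of the others, ADAMTS16 had 54 and 57 counts. ADAMTS6 had 9 and 18 counts, and its log2FC of -0.97, the lowest of the 33 genes, had an interval from -2.35 to 0.22. ADAMTS17 had 0 and 3 counts, ADAMTS18 had 2 and 1, and ADAMTS19 had none.

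The inhibitors and activators of these proteases with at least 10 counts stayed within 1 and -1. They were few, and 10.6% of all genes tested lay past these limits. Of genes with at least 100 counts, which all of these had, 1.78% lay above 1 and 1.06% below -1. Of 6 tissue inhibitors, 4 had at least 10 counts, with a median log2FC of 0.32. TIMP1 had 1166 counts in shMBD2 and 1003 in shNC (log2FC 0.21), and TIMP2, which also takes part in the activation of MMP2, had 2090 and 1534 (log2FC 0.44, interval 0.34 to 0.53). TIMP4 had 86 and 54 counts (log2FC 0.66, interval 0.16 to 1.18), TIMP3 had none, and the membrane-anchored inhibitor RECK had 236 and 279 (interval -0.51 to 0.0049). TIMP1 to TIMP4 summed to 253 TPM in shMBD2 and 208 TPM in shNC, so that the ratio of MMP to TIMP transcripts was 1.16 and 1.14. Of the 4 proprotein convertases, which remove the propeptide of membrane-type MMPs and of ADAMs, FURIN was at 0.012, PCSK7 at 0.024 and PCSK6 at 0.49, and PCSK5 was lower, with 90 and 166 counts and a log2FC of -0.89 (interval -1.28 to -0.51).

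The 9 iRhom and tetraspanin partners, which carry ADAM17 and ADAM10 to the cell surface, had a median log2FC of 0.23. RHBDF2 (iRhom2), the partner of ADAM17, had 1179 counts in shMBD2 and 714 in shNC, a log2FC of 0.71 (interval 0.58 to 0.85). Among the tetraspanins that accompany ADAM10, TSPAN14 had 3637 and 2456 counts (log2FC 0.56, interval 0.48 to 0.63), and TSPAN15 had 999 and 1080 and TSPAN17 1050 and 1142 (log2FC -0.12 and -0.13). The lower ADAM10 level was thus seen beside a higher TSPAN14 level, while TSPAN15, the most abundant of the list, and TSPAN17 differed little. A link between ADAM10 and its tetraspanins was not tested.

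Among 26 cell-surface proteins that ADAMs are known to shed, 7 (26.9%) had a log2FC above 1, against 5.48% of all genes. In this list 0 had one below -1, and the median was 0.46. The list was chosen with earlier results of these data known, so its share is a description and not a test. The 7 were TNF, ICAM1, VCAM1, CX3CL1, TNFRSF1B, EREG and SDC4. The inflammatory genes among them were absent or nearly so in shNC. ICAM1, VCAM1, CX3CL1 and TNF had 187, 92, 49 and 27 counts in shMBD2 and 0 in shNC, so they passed the count minimum through shMBD2 alone. Against 3 counts in shNC they were at least 62.0-fold, 30.5-fold, 16.2-fold and 8.94-fold higher. TNFRSF1B had 18 counts and 1 (log2FC 3.62, interval 1.50 to 9.54), so it too passed the minimum through shMBD2 alone. The share above 1 includes these genes, and of the 7 only EREG and SDC4 had 10 or more counts in shNC. EREG, an EGFR ligand, had 1541 and 705 counts (log2FC 1.12, interval 0.99 to 1.25), and the proteoglycan SDC4 had 1065 and 482 (log2FC 1.13, interval 0.98 to 1.29). The neuregulin gene NRG1 had 1797 and 985 counts (log2FC 0.86, interval 0.75 to 0.97). The most abundant substrates differed less, with APP at -0.15, TNFRSF1A at -0.098 and CD44 at 0.52, and NOTCH1 had 663 counts in each library.

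Of 18 matrix substrates, 17 had at least 10 counts, and 7 of them (41.2%) lay above 1 and 0 below -1, with a median log2FC of 0.93. This list was also chosen with earlier results of these data known, so its share is a description and not a test. TNC had 146 counts in shMBD2 and 23 in shNC (log2FC 2.63, interval 2.02 to 3.36). COL5A1, LAMB3, NID1, COL4A1 and COL1A1 had log2FC values of 1.50, 1.46, 1.44, 1.38 and 1.30. COL4A1, a chain of the collagen IV that MMP2 cleaves, had 4790 and 1833 counts. The abundant FN1 was at 0.25 and COL4A2 at 0.93. VCAN, the versican substrate of ADAMTS proteases, went the other way, with 4257 and 7393 counts and a log2FC of -0.81 (interval -0.86 to -0.75). ACAN had 1 count in each library. Of the 6 fibroblast markers, COL1A1 alone was higher in shMBD2 (308 and 124 counts). COL3A1 had 1 and 6 counts, LUM 5 and 6, COL1A2 0 and 1, and DCN and PDGFRB 1 in each library.

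Of the genes with at least 10 counts, 1 of 5 relatives without a protease domain and 2 of 4 other metzincins lay above 1, against 5.48% of all genes. Both lists were chosen with earlier results of these data known. ADAMTSL4, an ADAMTS-like matrix protein, had 145 counts in shMBD2 and 47 in shNC, a log2FC of 1.61 (interval 1.13 to 2.12). THSD4, also called ADAMTSL6, was the most abundant of the 8 relatives in the tables and was lower, with 3580 and 5547 counts and a log2FC of -0.64 (interval -0.70 to -0.58). The median of the 5 relatives with at least 10 counts was 0.052. Of the other metzincins, the tolloid-like proteases TLL1 (53 and 18 counts) and TLL2 (15 and 6 counts) had log2FC values of 1.52 (interval 0.75 to 2.41) and 1.25 (interval -0.13 to 2.97). With 6 counts in shNC, TLL2 passed the minimum of 10 counts through shMBD2 alone. BMP1 and PAPPA, the abundant ones, were at 0.20 and 0.34, and the median of the 4 with at least 10 counts was 0.79.

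The 18 genes of transcription factors known at MMP promoters had a median log2FC of 0.26, with 4 above 1 and 1 below -1, against 5.48% and 5.07% of all genes. They too were chosen with earlier results of these data known. RELB had 473 counts in shMBD2 and 79 in shNC (log2FC 2.57), NFKB2 had 1302 and 429 (1.59), FOSL1 had 354 and 144 (1.29) and NFKB1 had 1071 and 473 (1.17). FOSB, with 4 and 11 counts, had a log2FC of -1.36 and an interval from -3.57 to 0.29. FOSL2, the most abundant of the list, had 4406 and 2256 counts (log2FC 0.96). ELF3 was lower, with 1696 and 2582 counts (log2FC -0.62), and JUND was at -0.024.

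**Figure D4:**
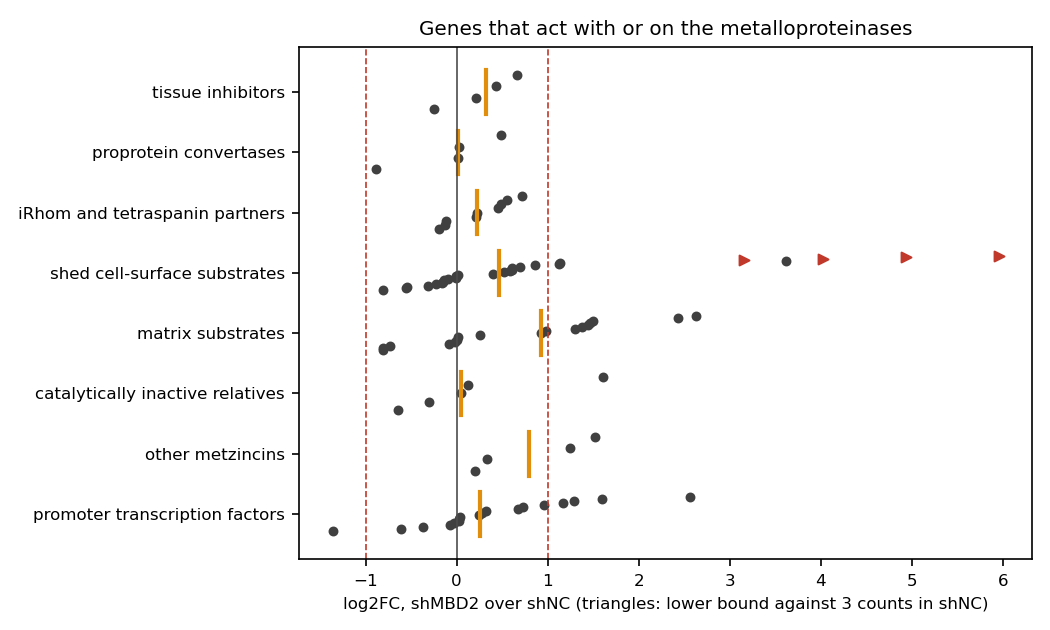
Log2FC (x axis, shMBD2 over shNC, 1 library each) of genes with at least 10 counts in 8 lists of genes related to metalloproteinases; each point is a gene, triangles are lower bounds, against 3 counts, for the genes with 0 counts in shNC, orange bars are list medians and dashed lines mark 1 and -1. Matrix substrates have the highest median, 0.93, and inhibitors, proprotein convertases and the iRhom and tetraspanin partners lie wholly within the dashed lines. Of all genes tested, 10.6% lie past these lines, and the lists were chosen with earlier results of these data known.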

How the data were processed

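The authors deposited whole-number read counts per gene and TPM per gene for both libraries. The submitters' processing notes name fastp, HISAT2 2.1.0, featureCounts, DESeq 1.18.1 and GRCh38.p13. The strand setting of the counting is not given in the sources used here. Of 63677 rows with an Ensembl identifier, 7039 repeated the symbol and values of another row and were dropped, leaving 56638 genes. TPM then summed to 1000000 in each library.

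Libraries were scaled with TMM (edgeR 4.0.16, R 4.3.3) over the whole table. For log2FC, 0.5 counts, adjusted to the size of each library, were added first, and 95% Clopper-Pearson intervals came from scipy 1.17.1. With 1 library per condition no test was run. Intervals cover counting error only, since PCR reads are not independent molecules. The scripts were tested on simulated counts. Alternatives were DESeq2 1.42.0 size factors, total counts, log2 of TPM plus 0.1 or 1, a prior of 2 counts, minimums of 1 and 100 counts, and the whole interval past 1 or -1.

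The members and gene lists (inhibitors, convertases, iRhom and tetraspanin partners, shed and matrix substrates, inactive relatives, other metzincins, transcription factors and cell type markers) were chosen with earlier results of these data known. Values are given for members past 1 or -1, for the 10 highest in TPM and, by subgroup, for the rest, and for list genes past 1 or -1 or among the 3 highest TPM of their list. TIMP3, TIMP4, PCSK5, TSPAN14, NRG1, NOTCH1, VCAN, ACAN, ADAMTS9-AS1, LAPTM5, CORO1A, ABCB1, ADAMTS9-AS2, the other cell type markers and the overlapping genes were named after their values were seen. ADAMs were split by catalytic activity from general knowledge, as no protein sequences were used here. Values of some list genes and overlapping genes are not reported here.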

Additional observations from a re-analysis of the deposited data

How the results depend on the processing

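MBD2 stayed between -1.50 and -1.45 under all 7 alternatives for its log2FC. Of 223 values of single members under these alternatives, 222 stayed within the member's counting interval and none changed sign. The exception was MMP19, at 0.82 with log2 of TPM plus 1, which pulls low genes towards 0. The minimums of 1 and 100 counts change only which genes are included, so a single gene keeps its value under them. DESeq2 size factors and total counts shift all genes by nearly the same small amount. Agreement under these alternatives was thus largely fixed in advance, for MBD2 as for the members. Only the TPM scales and the prior of 2 counts could move genes apart. The number of genes above 1 was 2 for MMP and 2 for ADAM. It became 1 and 1 with TPM plus 1, 1 and 1 with at least 100 counts, 1 and 1 when the whole interval had to lie above 1, and 7 and 4 with at least 1 count. With at least 1 count, 2 MMP genes lay below -1 where there had been 0, and 1 ADAMTS gene lay above 1 and 1 below -1. The share of all genes above 1 was then 16.6%, against 5.48% with at least 10 counts, and the share below -1 was 15.8%, against 5.07%. With TPM plus 1, 2.13% of all genes lay above 1. With at least 100 counts it was 1.78%, and 7 MMP and 11 ADAM genes remained. A whole interval above 1 was held by 1.37% of all genes. ADAM19 ranged from 1.36 to 1.60, MMP2 from 1.16 to 1.46, ADAM28 from 0.63 to 1.29, ADAM10 from -0.59 to -0.56 and ADAM9 from -0.34 to -0.30. The MMP median ranged from 0.28 to 0.47. The ADAM median, 0.0053, ranged from -0.073 to 0.084 and the ADAMTS median, -0.086, from -0.11 to 0.11, so neither has a direction. No paired analysis was possible because only a single library per group was sequenced, and for the same reason no library could be left out. The spread between cultures was not measured.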
